A study of Homo sapiens with 4 samples.

Results

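The sites described here are all 2225 peaks that the authors listed for PPARG in NCI-H2347, a human lung adenocarcinoma cell line, out of 3644 peaks deposited for the 2 lines of the study. Every row of the NCI-H2347 list was taken, with its chromosome, start, end and score, and no row was left out. The line was made transgenic for PPARG-LAP, a tagged PPARG carried on a bacterial artificial chromosome (BAC) and bearing EGFP, was grown in RPMI-1640 with 5% FBS, and was fixed with formaldehyde before a goat antibody against EGFP was used to precipitate the tagged protein (ChIP). There was 1 ChIP library and 1 input library for the line, and the other line, NCI-H1993, carried the same kind of transgene and had the same layout. The antibody recognises the tag, so untagged PPARG made from the cells' own gene was not measured. The sources used here do not give whether the line was a single clone or a pool. The labels state no treatment, and the abbreviation PIO in the list's name is not explained in them. The input library was not analysed here, and how it entered the peak calling was not given, so the values below describe the listed peaks and were not set against input reads here.

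PPARG is a ligand-activated nuclear receptor. It binds DNA together with a retinoid X receptor (RXR), most often at a direct repeat of a short hormone response element, and it recruits coactivators or corepressors depending on its ligand. It is best known as the master regulator of fat cell formation and of fatty acid storage, and in the lung it is present in epithelial cells and in alveolar macrophages.

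The list names no genes, and gene positions on hg19 were not used here. The gene names below were recalled from general knowledge of the human gene map and attached to sites after the positions and scores had been seen. They are landmarks to orient a reader, not measurements: "at" a gene means in its region of that recalled map, no distance to a gene, promoter, exon or intron was computed, and no target gene is implied. The naming rule of the analysis allowed genes only where hg19 positions were available, so these names fall outside it, and no share or comparison below rests on them. Where the order of genes between a pair of landmarks is given, it is from the RefSeq table of another build (GRCh38.p14). Sites on hg19 are given as chromosome, first and last base. The score is the authors' own value for each peak, ranks peaks within this list and has no unit. All values come from 1 library, so no spread between replicates exists and no test was made.

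The list held many moderate peaks and few strong ones. Its scores ran from 50.1 to 1002 with a median of 77.1 (quartiles 59.0 and 117). Scores under 100 were held by 1491 peaks (67.0%), scores from 100 to 200 by 551 (24.8%), from 200 to 300 by 123 (5.53%), and scores of 300 or more by 60 peaks (2.70%, with a 95% Wilson interval of 2.10% to 3.46%). Scores were thus 100 or more in 33.0% of all peaks. Stronger peaks were wider, with a median of 671 bp in the lowest of 10 equal groups by score and 1077 bp in the highest. Of all peaks, 21.7% overlapped an NCI-H1993 peak by at least 1 bp, and the overlapped NCI-H1993 peaks were 34.2% of that list. Intervals on shares cover counting error only, treat peaks as independent of each other and are no test between groups.

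The 15 highest-scoring sites lay on 9 chromosomes and had scores of 437 to 1002. Their widths ranged from 652 to 3542 bp. The highest score, 1002, was 1.42 times the second highest and belonged to a peak of 3542 bp on chromosome 1, positions 178505622 to 178509163. That site is in the stretch between RASAL2 and RALGPS2, which holds 2 other coding genes in the RefSeq order, CLEC20A and TEX35. It overlapped an NCI-H1993 peak and had a weaker companion with a score of 74.3 at a midpoint distance of 7.79 kb.

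A peak of 940 bp at WNK4 followed, on chromosome 17 from 40935121 to 40936060, scoring 707. WNK4 encodes a kinase that controls salt transport across epithelia. The peak stood alone, with its nearest neighbour 242 kb away, and no NCI-H1993 peak overlapped it. Rank 3 was a peak of 2024 bp on chromosome 5 that scored 661 (14037995 to 14040018), between DNAH5, a dynein heavy chain gene of motile cilia, and TRIO, a guanine nucleotide exchange factor gene. The RefSeq order has 0 coding genes between DNAH5 and TRIO. Rank 4 was a peak at ANO10, a member of the anoctamin membrane protein family, on chromosome 3 from 43496481 to 43497242, scoring 577.

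The site at PHLDA3 ranked 5, on chromosome 1 from 201435059 to 201436294, scoring 527. PHLDA3 is a p53 target gene whose product restrains AKT signalling. The site at ABCC3, an export pump for organic anions and bile acids, ranked 7, on chromosome 17 from 48738667 to 48739765, scoring 492. A peak inside the T cell receptor beta gene cluster (TRB) on chromosome 7, from 142123096 to 142124516, had a score of 482. Its nearest neighbour, 19.1 kb away, was also strong, with a score of 209.

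Scores then declined slowly. A peak at ZNF341 on chromosome 20 from 32376996 had a score of 479. The peak at WDR74, a gene of ribosome assembly, was on chromosome 11 from 62608452 and scored 476. Next came a peak at WSB2 on chromosome 12 from 118489983, scoring 460. These 3 sites each had their nearest neighbour between 46.1 and 83.6 kb away and overlapped an NCI-H1993 peak.

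The site at CHKA was on chromosome 11 from 67890229 to 67890880, scoring 456. CHKA encodes choline kinase alpha, which starts the synthesis of phosphatidylcholine, the main lipid of membranes and of surfactant. At 652 bp it was the narrowest of the 15. A peak at CD247, the zeta chain gene of the T cell receptor, scored 454 on chromosome 1 from 167410997, and a peak in the stretch between MAX and FUT8 scored 452 on chromosome 14 from 65801175.

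Of the 15, 3 had another peak within 10 kb, at ranks 1, 3 and 5, against 14.1% of the list, and those nearest companions had scores of 74.3, 56.1 and 74.7. In 8 of the 15 the nearest peak was more than 50 kb away, against 66.7% of the list. Their median distance to the nearest peak was 56.5 kb, against 140 kb for all peaks. Among all 60 peaks scoring 300 or more, 28.3% (18.5% to 40.8%) had a peak within 10 kb, against 12.1% (10.5% to 13.8%) of those under 100. An NCI-H1993 peak overlapped 11 of the 15. Over the whole list that overlap rose with score, from 13.7% of peaks under 100 to 32.5% from 100 to 200, 49.6% from 200 to 300 and 65.0% (52.4% to 75.8%) at 300 or more. The strongest sites without such an overlap were at WNK4, between DNAH5 and TRIO, at PHLDA3 and in the TRB cluster. Outside the 15, and named after its values were seen, a peak in the region of PDK4 ranked 20 with a score of 410, on chromosome 7 from 95237551 to 95238709. PDK4 encodes a pyruvate dehydrogenase kinase and is among the best-known PPAR targets. The peak overlapped an NCI-H1993 peak and had no other NCI-H2347 peak within 799 kb.

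**Figure D1:**
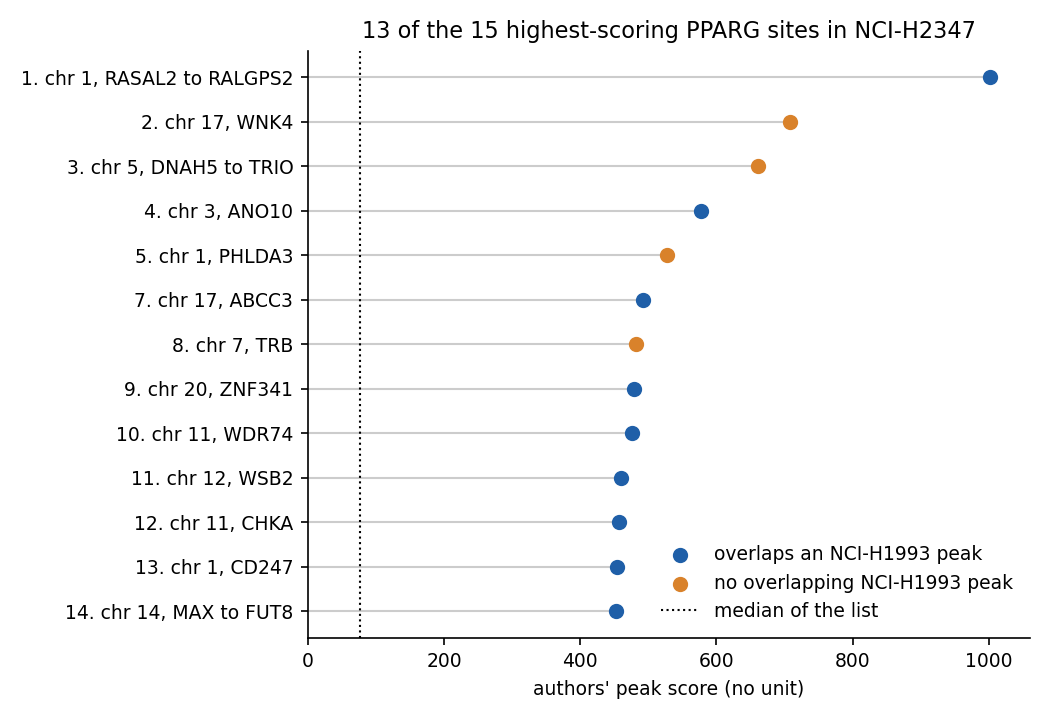
Score of 13 of the 15 highest-scoring NCI-H2347 peaks (points, on an axis from 0) with chromosome and recalled landmark gene, coloured by overlap with an NCI-H1993 peak. The first site at 1002 stands apart from ranks 4 to 14, which lie between 577 and 452, and the dotted line marks the list's median of 77.1.

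Sites also occurred in close groups. Adjacent peaks were chained into a cluster while their midpoints were at most 10 kb apart, which gave 146 clusters on 21 of the 23 chromosomes with a peak. They held 313 peaks, 14.1% of the list (95% Wilson interval 12.7% to 15.6%). A peak counts as clustered only together with a neighbour, so intervals on clustered shares, which treat peaks as independent, may be too narrow. Pairs made up 129 of the clusters, 14 had 3 peaks, 2 had 4 and 1 had 5. Chromosomes 13 and 21 had 0 clustered peaks among their 23 and 20 peaks. The median cluster spanned 5.23 kb and the longest 18.7 kb. In 17 adjacent pairs the facing edges were within 500 bp, down to 20 bp, so a few clusters may be single broad regions listed in pieces.

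Scores within a cluster ranged from nearly equal to far apart. A score of at least 100 was found in 133 of the 313 clustered peaks, or 42.5% (37.1% to 48.0%), and in 31.4% (29.4% to 33.5%) of the 1912 isolated peaks, against 33.0% of the list. In 103 clusters at least 1 peak reached 100, in 75 exactly 1 did, and in 19 every peak did. Within a cluster the highest score was a median of 1.82 times the lowest (quartiles 1.29 and 2.60), and at least 2 times the lowest in 58 clusters. The widest ratio, 13.5, belonged to the site between RASAL2 and RALGPS2 and its companion. Clustered peaks were 9.42% of group 4 of the 10 equal groups by score, 20.3% of group 9 and 18.8% of the highest group. At least 1 peak overlapped an NCI-H1993 peak in 49 clusters, and in 45 of these 49 other peaks of the cluster did not. Of the clustered peaks 18.2% overlapped one, against 22.3% of isolated peaks and 21.7% of the list.

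**Figure D2:**
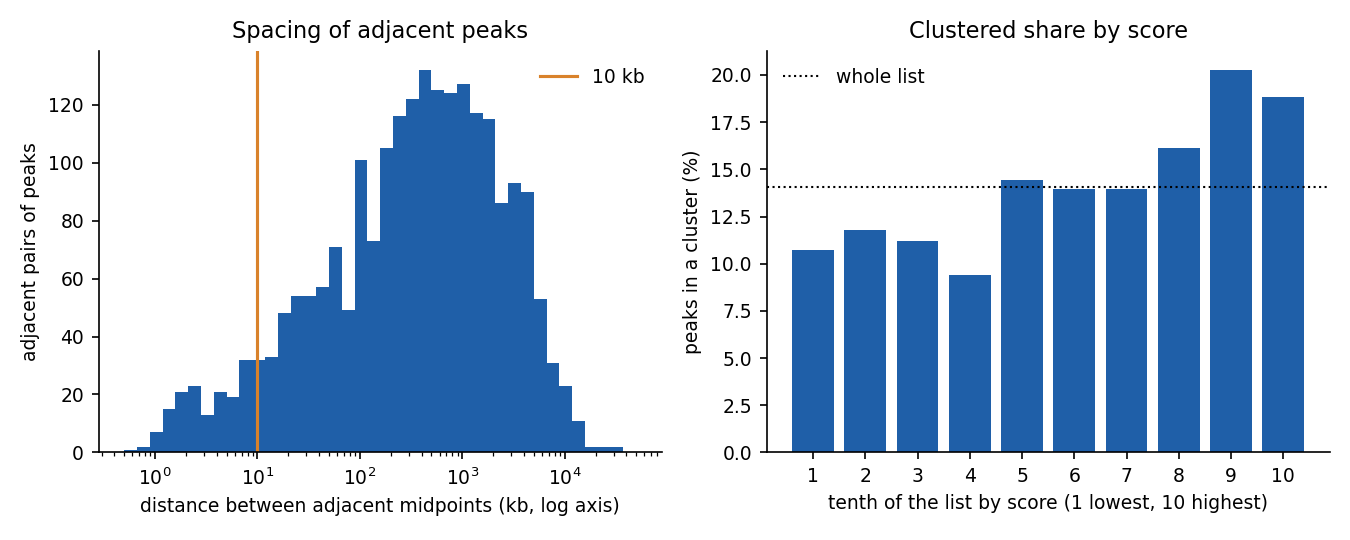
Left, number of adjacent peak pairs by midpoint distance in kb on a log axis, with the 10 kb limit as a line; right, percent of peaks in a cluster for each of 10 equal groups of the list by score, with the whole list at 14.1% as a dotted line. Of 2202 adjacent pairs 167 lie at or under 10 kb, and groups 5, 8, 9 and 10 lie above the dotted line.

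The largest cluster held 5 peaks within 16.8 kb on chromosome 17, from 57914643 to 57931427. On the recalled map it lies at the end of VMP1, a gene of autophagosome formation, and around MIR21, a microRNA gene. MIR21 gives miR-21, a microRNA abundant in many carcinomas, and its mature sequence is shown to identify that landmark gene; it was not measured here. Capitals mark the seed, bases 2 to 8, and the sequence is from RefSeq (GRCh38.p14, plus strand).
hsa-miR-21-5p: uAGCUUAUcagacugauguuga

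Going along the chromosome, the 5 peaks of the MIR21 cluster scored 124, 54.4, 116, 310 and 164. The highest was at 57922829 to 57924389 and ranked 55 in the list. Of the peaks, 4 reached 100, and the last 2 overlapped NCI-H1993 peaks. The first 4 were wide, with 1865, 1872, 1861 and 1561 bp against a list median of 832 bp. In the list the edges of the first 2 peaks were within 500 bp of each other.

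Both clusters of 4 held moderate peaks. The cluster at ELF3, on chromosome 1 from 201976383 to 201992882, had scores of 78.4, 52.2, 112 and 109. ELF3 encodes an ETS transcription factor of epithelial cells. The last 2 of its peaks overlapped NCI-H1993 peaks. The other cluster was in the stretch between FGD2 and PIM1 on chromosome 6, from 37095694 to 37105971, with scores of 110, 79.1, 64.6 and 139. PIM1 encodes a serine/threonine kinase that promotes survival. The last 2 peaks of this cluster overlapped NCI-H1993 peaks as well.

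The 5 clusters of 3 with the highest summed scores were at PHLDA3, KRT7, NEAT1, ACSL5 and NPAS2. Their highest peaks scored 527, 384, 228, 305 and 300, in that order. At PHLDA3 and NPAS2 a single peak reached 100, and at KRT7, NEAT1 and ACSL5 there were 2 such peaks.

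At PHLDA3 the strong peak had weaker neighbours that scored 71.7 and 74.7, within a span of 10.8 kb. At KRT7, which encodes a keratin of simple epithelia, the peaks scored 136, 384 and 80.8 on chromosome 12 from 52621930 to 52630498. The cluster at NEAT1, a long noncoding RNA that scaffolds nuclear paraspeckles, spanned 4.75 kb on chromosome 11 from 65185930 to 65190678 and had scores of 226, 228 and 67.3. None of the peaks at PHLDA3 and NEAT1 overlapped an NCI-H1993 peak, and 2 of the 3 at KRT7 did.

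ACSL5 encodes a long-chain acyl-CoA synthetase, which activates fatty acids for storage or oxidation. Its cluster was on chromosome 10 from 114139432 to 114149812, with scores of 145, 305 and 62.0. A further strong peak, with a score of 280, followed at 114163926 to 114165229, beyond the 10 kb limit. The cluster at NPAS2, a transcription factor of the circadian clock, was on chromosome 2 from 101474051 to 101492710, with scores of 76.4, 300 and 81.8, the strong peak in the middle.

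Of the 17 clusters of 3 or more, 16 held a peak with a score of at least 100, against 103 of all 146 clusters. Clusters with more peaks have more chances to hold such a score. In 9 of the 17 no peak overlapped one of NCI-H1993, and each of the others held at least 1 peak that did. Of all 146 clusters, 49 held at least 1 such peak and the rest, the majority, held none. More peaks in a cluster likewise give more chances of an overlap. A further 3 clusters of 3 peaks are named here that the rule did not choose, picked with their values known. They were not the next by summed score. A cluster of 3 on chromosome 12 from 122222063 to 122230622, with a sum of 404, ranked above each of them. At CLDN4, a claudin of epithelial tight junctions, 3 peaks scored 125, 125 and 90.3 on chromosome 7 from 73236605 to 73245604. At PPCDC, an enzyme of coenzyme A synthesis, 3 peaks on chromosome 15 from 75321452 to 75335984 scored 71.6, 204 and 94.9. At CDC42EP4, an effector of the small GTPase CDC42, the scores were 57.4, 56.0 and 234, on chromosome 17 from 71284712 to 71290257.

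The peaks were spread unevenly over the chromosomes. Chromosome 1 had the most, 263 peaks or 11.8% of the list (95% Wilson interval 10.5% to 13.2%). Per length between the first and the last peak, chromosome 17 had the highest density, 1.86 peaks per Mb with 150 peaks. The list as a whole had 0.783 per Mb. Chromosome 22 came next with 1.31, then chromosome 12 with 1.12, chromosome 1 with 1.09, chromosome 15 with 1.07 and chromosome 11 with 1.03. Chromosome 13, with 0.248 per Mb, and chromosome X, with 0.320, were lowest. Chromosome 12 had the largest clustered share, 30 of 143 peaks or 21.0%, against 14.1% in the list. On chromosome 19, 25 of 50 peaks (50%) scored at least 100, against 33.0% in the list, and on chromosome 11 36 of 135 did (26.7%). Copy number of the chromosomes was not measured here and its part in these densities was not tested.

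**Figure D3:**
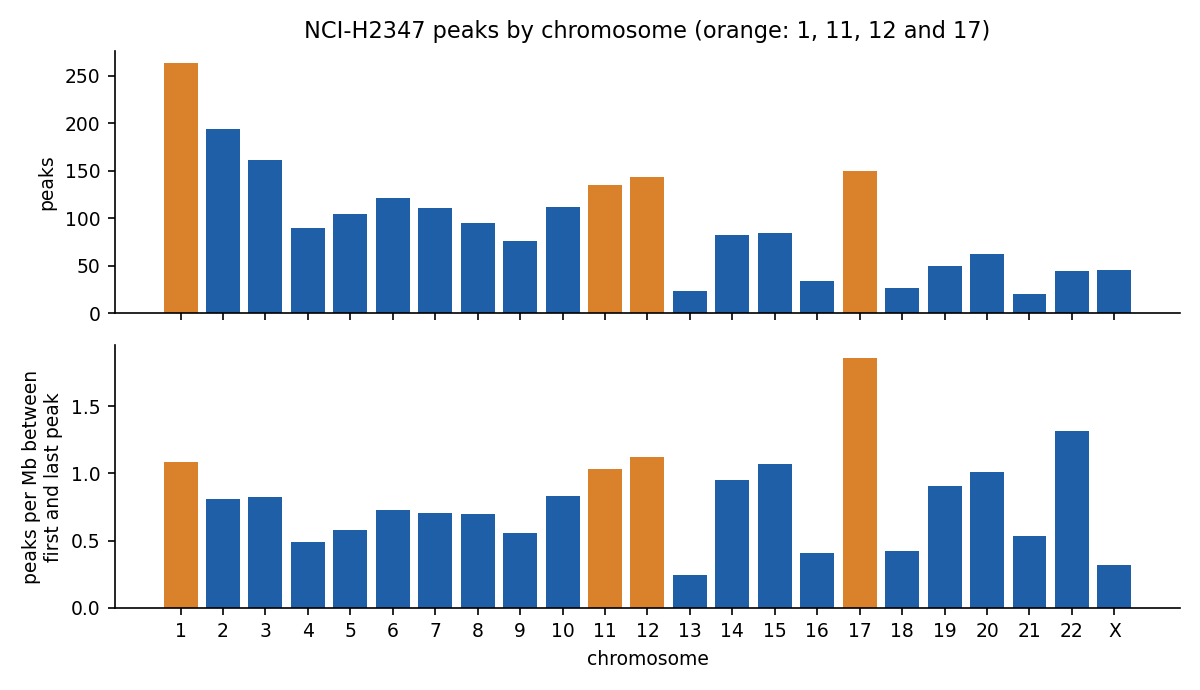
Number of NCI-H2347 peaks by chromosome (top) and peaks per Mb between the first and last peak of the chromosome (bottom), with chromosomes 1, 11, 12 and 17 in orange. Chromosome 1 has the most peaks, 263, and chromosome 17 the highest density, 1.86 per Mb.

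Some neighbourhoods were rich in sites. The chromosomes were divided into windows of 1 Mb, and 1129 windows held a peak, of which 598 held 1. Windows with 8 or more peaks numbered 9, or 0.797% of those with a peak, and 7 of the 9 were on chromosomes 1, 11, 12 and 17, which held 691 of the 2225 peaks (31.1%). Those chromosomes were chosen with earlier results of these data known, so the 7 of 9 is a description and no evidence of concentration there. The number of windows with 8 or more peaks rests on close and on moderate peaks: it was 2 with each cluster counted once and 0 among peaks scoring 100 or more. These 7 windows held 68 peaks, 3.06% of the list. Because the windows were picked for their number of peaks, many of their peaks lie close together by construction: 35 of the 68 (51.5%) were in clusters, against 12.9% of the 2157 peaks elsewhere. Scores were 100 or more for 30 of the 68 (44.1%), against 32.6% elsewhere, and 14 of the 68 (20.6%) overlapped an NCI-H1993 peak, against 21.7% elsewhere.

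The S100 gene cluster on chromosome 1 was the neighbourhood with the highest median score. S100 genes encode small calcium-binding proteins, many of them made in epithelia. The window from 153000001 held 8 peaks with a median score of 228, the highest of the 73 windows with at least 5 peaks, although single peaks were stronger in the windows on chromosome 1 from 201000001 and chromosome 17 from 48000001. A peak between PGLYRP4 and S100A9, from 153324390 to 153325700, scored 337. A peak of 3110 bp at S100A6, from 153505162 to 153508271, scored 361, and its neighbour at S100A5, from 153512549 to 153514042, scored 411. The peak at S100A2, from 153539780 to 153541704, scored 378. The other 4 peaks scored from 53.1 to 120. So 4 of the 8 peaks scored above 300, while 60 of 2225 in the list scored 300 or more. The window was singled out for its median score, so many high scores in it follow by construction. Those 4 peaks lay along a run of genes between PGLYRP4 and S100A14. In the RefSeq order the run holds S100A9, S100A12, S100A8, S100A7A, S100A7, S100A6, S100A5, S100A4, S100A3, S100A2 and S100A16. The peaks at S100A6 and near S100A9 overlapped NCI-H1993 peaks, and those at S100A5 and S100A2 did not.

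The window on chromosome 1 from 201000001 was led by PHLDA3 and closed by ELF3. Its 9 peaks came from 4 sites or clusters. The PHLDA3 cluster, which held its first peaks from 201425474 on, and the ELF3 cluster at its end held 7 of the 9. CSRP1, NAV1, IPO9, SHISA4, LMOD1, TIMM17A and RNPEP lie between PHLDA3 and ELF3 in the RefSeq order. In that stretch 2 single peaks were listed, at 201682439 with a score of 110 and at 201865963 with a score of 60.9. The median score of the window was 78.4, near the list's 77.1, so the PHLDA3 peak at 527 stood well above the rest.

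The remaining window on chromosome 1, from 160000001, held 8 peaks with no cluster among them and no overlap with NCI-H1993, which had 0 peaks there. The strongest were at LY9, a receptor of lymphoid cells, at 160795849 with a score of 285 and at 160776640 with a score of 178. Peaks at PEX19, a peroxisome assembly gene, and F11R, the gene of junctional adhesion molecule A, were weak. They scored 58.4 from 160253723 at PEX19, and 51.4 from 160964736 and 83.7 from 160987467 at F11R.

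On chromosome 11, the window from 65000001 held 9 peaks with a median score of 71.7, below that of the list. The NEAT1 cluster gave the 2 peaks that reached 100. At MALAT1, another abundant nuclear noncoding RNA, peaks were listed from 65261241 with a score of 60.3 and from 65273767 with a score of 92.5. The latter was 1932 bp wide. Near FOSL1, an AP-1 subunit gene, peaks from 65670360 and 65680229 scored 72.8 and 59.4. A peak at PACS1 from 65892035 scored 71.7 and was the 1 peak of the 9 that overlapped an NCI-H1993 peak.

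The keratin neighbourhood on chromosome 12, in the window from 52000001, held 10 peaks, and 7 of them were in clusters. All 7 lay at KRT80 and KRT7, 2 keratin genes that follow each other in the RefSeq order. At KRT80, peaks from 52586013 and 52588339 scored 125 and 330. The KRT7 cluster described above followed, and a pair of peaks from 52641181 and 52642411 scored 75.8 and 76.3. Scores of at least 100 were found at KRT80 and at the start of KRT7 and nowhere else in the window. At ACVRL1 and between KRT75 and KRT6B the peaks scored 55.7 and 57.2. From KRT7 to KRT75 the RefSeq order lists KRT86, KRT81, KRT83, KRT85, KRT84 and KRT82, and no peak was listed between the last peak at KRT7 and the one between KRT75 and KRT6B, a midpoint distance of 193 kb.

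Chromosome 17 had a pair of windows with 12 peaks each, the most on this grid. With windows moved up by 0.5 Mb they held 6 and 10, and the window on chromosome 12 held 12, so the order depends on where windows start. In the window from 48000001, the 12 peaks belonged to 10 separate sites, so its sites were dispersed. At ITGA3, the gene of a laminin-binding integrin of epithelia, and just before it, 5 peaks were listed. The first, from 48105370, scored 136, the next, from 48128023, scored 95.6, and the cluster from 48138138 to 48142667 had scores of 54.2, 79.8 and 113. At PDK2, a pyruvate dehydrogenase kinase gene next to ITGA3, a peak from 48179178 to 48180124 scored 92.2. At ACSF2, which encodes an acyl-CoA synthetase, peaks from 48500954 and 48537870 scored 78.9 and 53.5. The ABCC3 site at 492 was the strongest of the window and had weaker peaks on either side, from 48707591 with a score of 115 and from 48766413 with a score of 65.3. The ABCC3 site was also the 1 peak of the 12 that overlapped an NCI-H1993 peak.

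The window from 57000001 on chromosome 17 had its peaks mainly at its far end. Of its 12 peaks, 8 lay from 57833187 to 57931427, along VMP1 and MIR21, and 7 of the 12 reached a score of 100, the most in any window. Before the MIR21 cluster, peaks along VMP1 scored 200 from 57833187, 184 from 57863374 and 86.5 from 57888293. At TRIM37, a ubiquitin ligase gene, a pair of peaks from 57068821 and 57069729 scored 75.9 and 136. The remaining 2 peaks scored 51.0 and 54.2. Of the 12, 5 overlapped NCI-H1993 peaks, 4 of them along VMP1 and MIR21.

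The other 2 windows with 8 peaks were on chromosome 10 from 114000001, where the ACSL5 sites lay, and on chromosome 14 from 75000001. The first had a median score of 62.3 and the second of 103, with a highest score of 370 at 75426162 to 75427171.

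**Figure D4:**
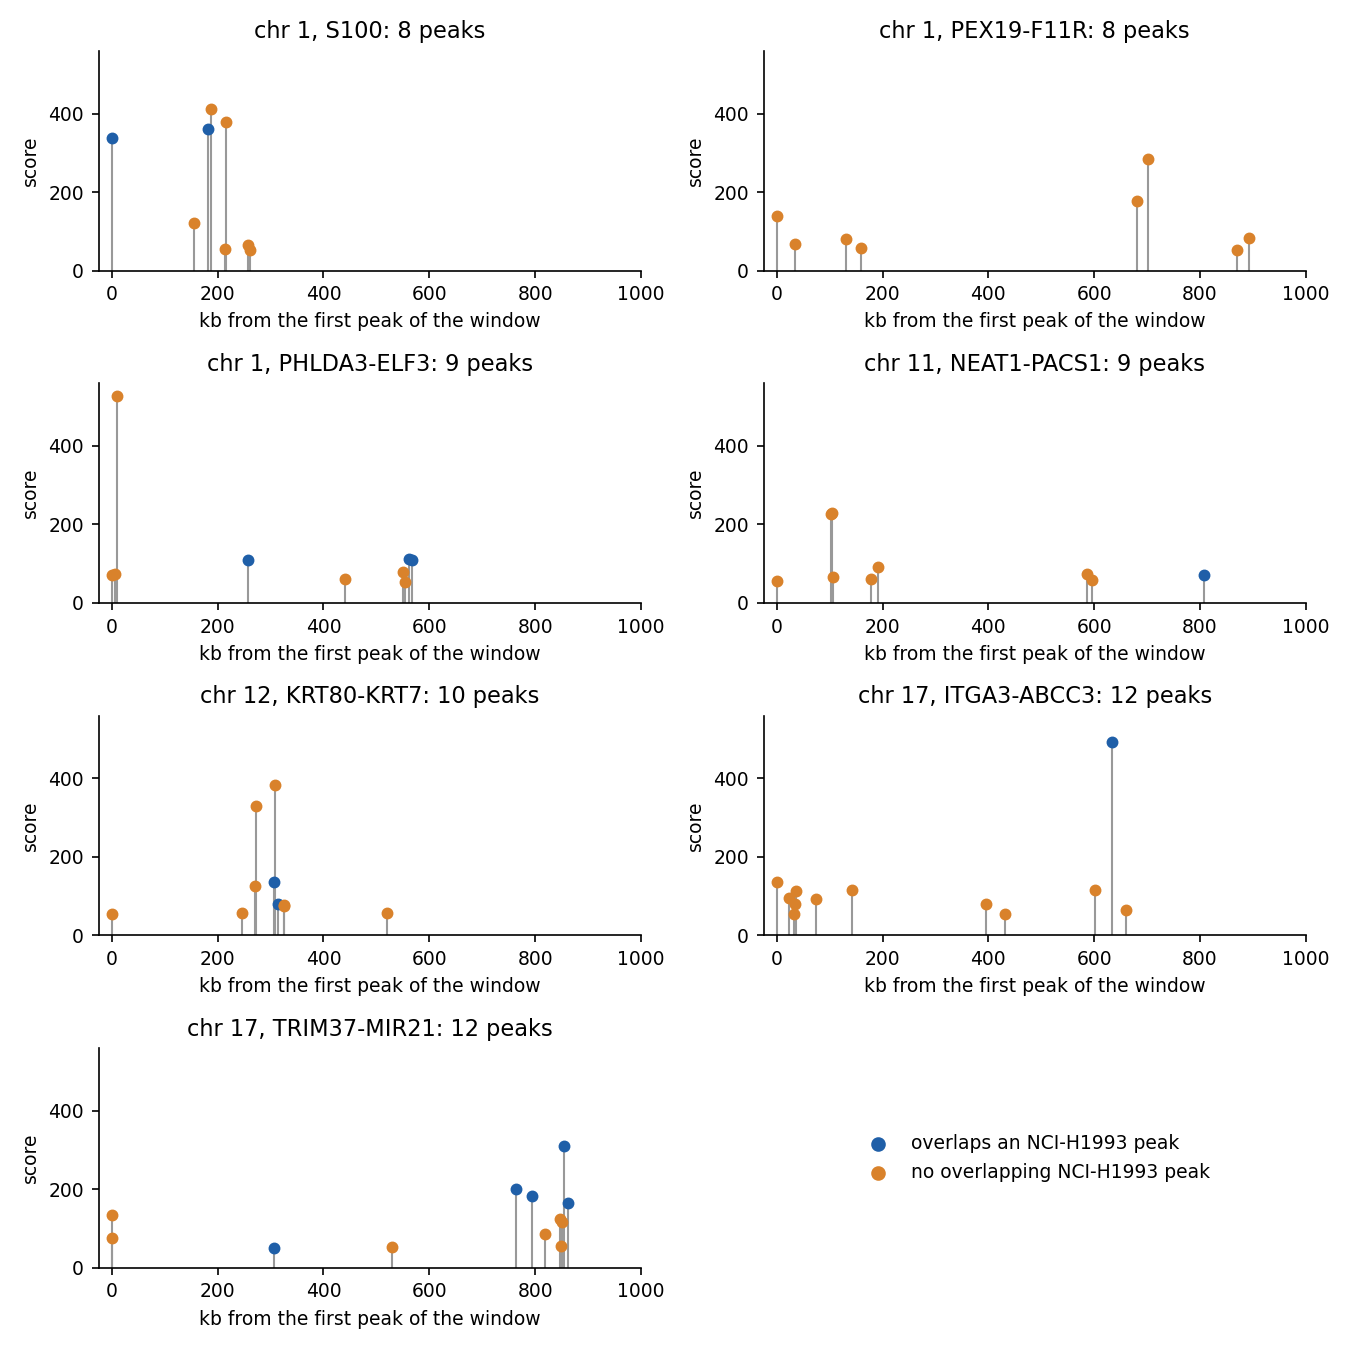
Score of each peak (points on stems, axis from 0) against distance in kb from the first peak of its 1 Mb window, for the 7 windows on chromosomes 1, 11, 12 and 17 with 8 to 12 peaks, titled by recalled landmark genes and coloured by overlap with NCI-H1993. In the S100 panel 4 peaks exceed 300, while in the ITGA3 to ABCC3 panel a single peak of 12 exceeds 150.

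Wide peaks were few. The 9 peaks over 2500 bp had a median score of 70.4, and those between RASAL2 and RALGPS2 and at S100A6 were the 2 that scored above 300. Of the other 7, 6 lay on chromosomes 2, 4, 9, 16 and 21 in regions generally known to be next to centromeres, where repeats can gather reads; whether repeats shaped these peaks was not tested. One of 5627 bp with a score of 70.4 lay on chromosome 3 from 12482638 to 12488264, on the recalled map beside PPARG, the gene that the transgene carries. It overlapped an NCI-H1993 peak, and the part of extra copies from the transgene in this value was not tested.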

How the data were processed

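The deposited list of the NCI-H2347 ChIP sample holds 5 columns per peak: chromosome, start, end, name and the authors' score. Per the submitters' processing notes it was made with MACS 1.4.2 on hg19. The sources used here do not give the aligner, read filters, threshold or use of the input, and read depth is unknown, so no precision by depth can be given. Deposited starts were made 1-based. Peaks were chained at midpoint distances of at most 10 kb, assigned by midpoint to 1 Mb windows, and ranked by score within the list; shares carry 95% Wilson intervals. The NCI-H1993 list served as a reference for overlap of at least 1 bp. With 1 library per group no test was made. Named were the 15 highest-scoring peaks, clusters of 4 or more, the 5 clusters of 3 with the highest summed score, and windows with at least 8 peaks on chromosomes 1, 11, 12 and 17. Sites and windows were chosen with earlier results of these data known. Gene features, gene lists and motifs needed hg19 positions or sequence and were not analysed here. The naming rule allowed genes only with hg19 positions. Landmark gene names were instead recalled from general knowledge after the positions were seen, were not checked against an hg19 annotation, and support no value; the RefSeq table (GRCh38.p14) held all 59 symbols and gave gene order alone. Of the 15 highest-scoring peaks 2, and several peaks of the windows, are counted but not reported singly here. Clustering and overlap code was tested on simulated lists. Python 3.11.15, numpy 2.4.6, pandas 2.3.3, scipy 1.17.1 and matplotlib 3.10.9 were used.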

Additional observations from a re-analysis of the deposited data

How the results depend on the processing

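Merging peaks with edges within 500 bp was an alternative added after seeing the data. The clustered share of 14.1% was 8.85% with midpoints within 5 kb, 20.9% within 20 kb and 7.90% when only peaks scoring 100 or more were kept, which leaves fewer to chain. Clusters of 2 or more numbered 94 within 5 kb and 28 with that score, against 146. Clusters of 3 or more numbered 7, 39 (20 kb) and 1 (score), against 17. They stayed within 1.5 times when edges replaced midpoints, without peaks wider than 2500 bp and after merging. Windows with 8 or more peaks numbered 9, also when moved by 0.5 Mb, 2 with each cluster counted once and 0 with a score of at least 100. Taking the windows in the order chromosome 1 from 153000001, 160000001 and 201000001, chromosome 11, chromosome 12 and chromosome 17 from 48000001 and 57000001, the peaks with that score were 5, 3, 4, 2, 4, 5 and 7. Windows moved down by 0.5 Mb held 2, 6, 3, 6, 2, 8 and 4, and moved up 7, 4, 8, 4, 12, 6 and 10. With each cluster counted once they held 5, 8, 4, 6, 6, 10 and 7. Of the 734 NCI-H2347 peaks scoring 100 or more, 17.6% overlapped an NCI-H1993 peak that also scored 100 or more. The 21.7% is a share of all 2225 peaks and counts NCI-H1993 peaks of any score. These shares have unlike bases, so they do not show that overlap was lower among strong peaks. No paired analysis was possible because NCI-H2347 had a single ChIP library. Alternatives for gene features and motifs were not run, since hg19 positions and sequence were not used. Since depth is unknown, absence of a peak does not show absence of binding.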
